A study of Mus musculus with 9 samples.

Results

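The genes described here encode the machinery by which a nerve terminal stores, docks, fuses and recovers transmitter vesicles, and their expression was compared in the hippocampus of mice that ate green soybean extract, yellow soybean extract or a control diet. The set holds 45 listed genes. Its members were all probe sets whose only platform gene symbol was on that list and which had a value on every array. These were 51 probe sets of 44 genes, out of 21959 complete probe sets tested, which name 16429 genes. Unc13c had 6 of them and Unc13a 3, while every other gene had 1. A further Unc13c probe set lacked a value on 2 arrays and was left out, and Vamp2 lay only on a probe set shared with other genes, so it has no value here.

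RNA came from the hippocampus of male SAMP10/TaSlc mice, an inbred senescence-accelerated strain with early brain ageing. The diets were CE-2 chow with 3% green soybean extract, CE-2 chow with 3% yellow soybean extract, and the control diet, eaten between 1 and 12 months of age, with 3 arrays per diet. All groups shared the strain, the sex and the tissue, and none held young animals or another strain. Each of the 5 diet groups of the feeding experiment had 12 mice, 6 to a cage, and 3 of those groups are used here. SMP30 stands in the titles although the strain is given as SAMP10, and the strain name was taken. Mice per array and cages are not labelled, so a p-value here reflects spread that may be technical, and cage and diet cannot be told apart.

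Transmitter release begins when a vesicle, filled with transmitter by vesicular transporters, is tethered at the active zone by large scaffolds such as Bassoon, Piccolo and the RIM proteins. Munc13 proteins prime the vesicle by opening syntaxin, SNAREs on the vesicle and plasma membranes zip together with complexin holding them poised, and synaptotagmins trigger fusion when calcium enters. NSF and its SNAP adaptors then take the SNAREs apart, and dynamin, amphiphysin and synaptojanin retrieve the membrane by endocytosis.

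Values are the authors' normalized scores, whose log base is not given in the sources used here. Differences are therefore in score units and no fold changes are given. A score is not comparable between probe sets, so each is compared with itself across arrays. Of the 51 probe sets, 6 held deposited scores with a control mean of 0 (within 1e-06), centred on the control arrays, and so show no level. These were Sv2c, Erc2, Syt11, Rab3b, Cplx1 and Slc17a7.

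The promoters of 4 members are shown because the comparisons below turn on the first 3 genes and because Syn1 and Unc13a hold the rarer motifs. They are RefSeq sequences of GRCm38.p6, each running from 250 bases before the annotated start to 50 bases after it, all on the minus strand. They lie at chr13:96132528-96132827 for Sv2c, chr9:73968988-73969287 for Unc13c, chr8:71671708-71672007 for Unc13a and chrX:20920869-20921168 for Syn1. The Unc13c window lies inside the gene's annotated span, chr9:73479422-74008155, so its start is an internal one. The other windows reach past the upstream end of their genes. Capitals mark matches to the motifs named after the sequences.
Sv2c: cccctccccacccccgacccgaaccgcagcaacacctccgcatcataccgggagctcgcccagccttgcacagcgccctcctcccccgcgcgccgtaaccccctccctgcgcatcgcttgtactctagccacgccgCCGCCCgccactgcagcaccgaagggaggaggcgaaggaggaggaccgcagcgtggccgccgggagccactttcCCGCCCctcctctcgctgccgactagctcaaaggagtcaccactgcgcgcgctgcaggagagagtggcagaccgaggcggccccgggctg
Unc13c: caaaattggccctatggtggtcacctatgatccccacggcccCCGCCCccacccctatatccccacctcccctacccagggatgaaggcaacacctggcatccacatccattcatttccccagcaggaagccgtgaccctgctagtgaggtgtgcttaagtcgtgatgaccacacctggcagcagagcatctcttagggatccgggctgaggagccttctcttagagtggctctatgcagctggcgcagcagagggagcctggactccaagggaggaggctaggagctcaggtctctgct
Unc13a: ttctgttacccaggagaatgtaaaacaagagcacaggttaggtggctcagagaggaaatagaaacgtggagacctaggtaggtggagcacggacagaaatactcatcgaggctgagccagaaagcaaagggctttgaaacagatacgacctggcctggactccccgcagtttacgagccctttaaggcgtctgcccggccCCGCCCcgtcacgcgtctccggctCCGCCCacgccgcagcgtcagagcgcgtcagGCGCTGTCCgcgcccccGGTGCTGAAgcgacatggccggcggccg
Syn1: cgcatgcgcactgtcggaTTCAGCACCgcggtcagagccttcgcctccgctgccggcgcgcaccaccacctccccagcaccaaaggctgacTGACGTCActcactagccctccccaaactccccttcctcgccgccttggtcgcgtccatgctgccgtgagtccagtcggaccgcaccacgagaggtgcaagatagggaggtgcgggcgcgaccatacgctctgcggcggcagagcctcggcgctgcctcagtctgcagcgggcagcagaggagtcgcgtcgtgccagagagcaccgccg

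The GC box, GGGCGG on either strand, is the site class bound by Sp1-type factors. It occurs in the printed sequences as CCGCCC at -114 and -40 from the start of Sv2c, at -208 from the internal start of Unc13c, and at -50 and -26 of Unc13a. Partial sites of REST, a repressor that keeps neuronal genes silent outside neurons, were searched as TTCAGCACC and GGACAGCGC on both strands. The Syn1 window holds TTCAGCACC at -232, and the Unc13a window holds GCGCTGTCC at 6 and GGTGCTGAA at 23, both after the start. Syn1, which encodes the vesicle phosphoprotein synapsin I, also carries the cyclic AMP response element TGACGTCA at -159. No searched motifs overlap in these windows.

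Promoters were matched for 36 of the 45 genes, 48 windows in all. The GC box was in 31 of those 48 windows (64.6%), against 35.7% of 32851 windows of all genes. TTCAGCACC was in 2 (4.17% against 0.371%), GGACAGCGC in 1 (2.08% against 0.405%) and TGACGTCA in 1 (2.08% against 1.79%). The TATA box TATAAA, on either strand, was in 3 windows of Rab3b and Sv2b (6.25% against 13.6%). The member windows had a median GC content of 61.7% and a median of 16.5 CpG dinucleotides, against 52.7% and 7 over all windows. These counts describe letters in a window and are not evidence of binding.

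Among the 9 arrays, 1 stood apart. Across uncentred probe sets, 8 arrays had a mean correlation with the others between 0.977 and 0.981, and green soybean replicate 3 had 0.958. Neuronal cell body and axon markers were all measured, and the summed score of the 10 uncentred ones ran between 11.6 and 13.3 with green soybean, 12.3 and 13.1 with yellow soybean, and 12.1 and 13.0 in controls. The lowest of these sums was that of green soybean replicate 3. Since levels of different probe sets are not comparable, the labelled tissue was checked only by which markers had values: none of the marker probe sets lacked a value on all arrays, and Tdo2 and Slitrk6 lacked one on at least 1 array. Leptomeningeal markers were higher in 10 of 12 with green soybean than in controls, against 65% of all probe sets, and 0 passed the test. The count was also 10 of 12 with array medians aligned (39.4% of all) and after quantile normalization (50.8% of all). The summed score of the 6 uncentred leptomeningeal probe sets ran between -0.347 and 0.844 with green soybean, -0.289 and 0.491 with yellow soybean, and -0.796 and -0.0198 in controls. The 9 uncentred choroid plexus probe sets summed to between -0.892 and 2.94 with green soybean, -1.34 and 1.11 with yellow soybean, and -1.59 and 1.02 in controls. GABAergic interneuron markers were higher in 10 of 12 with green soybean than in controls, and in 9 of 12 under either rescaling, and 0 passed. Microglia markers were higher in 8 of 9, in 4 of 9 with array medians aligned and in 8 of 9 after quantile normalization, and 0 passed. In tissue RNA, fewer cells of a type and less RNA per cell cannot be told apart, and the part of tissue makeup in the results below was not tested.

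No presynaptic probe set passed the test in any comparison. By limma with adjustment over all 21959 probe sets, 0 of 51 members had an adjusted p below 0.05 for green soybean against control, yellow soybean against control, green against yellow soybean, or any difference among diets, and the background was 0% in each. The smallest adjusted p among members was 0.462 for green soybean against control (Unc13c 10594967), 1.00 for yellow soybean against control and 0.634 for green against yellow soybean (Sv2c). The 95% interval of a member's difference reached a median of 0.152 score units to either side, while the difference itself lay within 0.1 units in 42 of 51 probe sets for green soybean against control, 49 for yellow soybean against control and 46 for green against yellow soybean. The 3 diets overlapped array by array in 47 of 51 probe sets in all 3 comparisons. The other 4 (7.84%, against 26.6% of all probe sets) were Sv2c, Cplx1, Unc13a 10579548 and Unc13c 10594969.

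**Figure D1:**
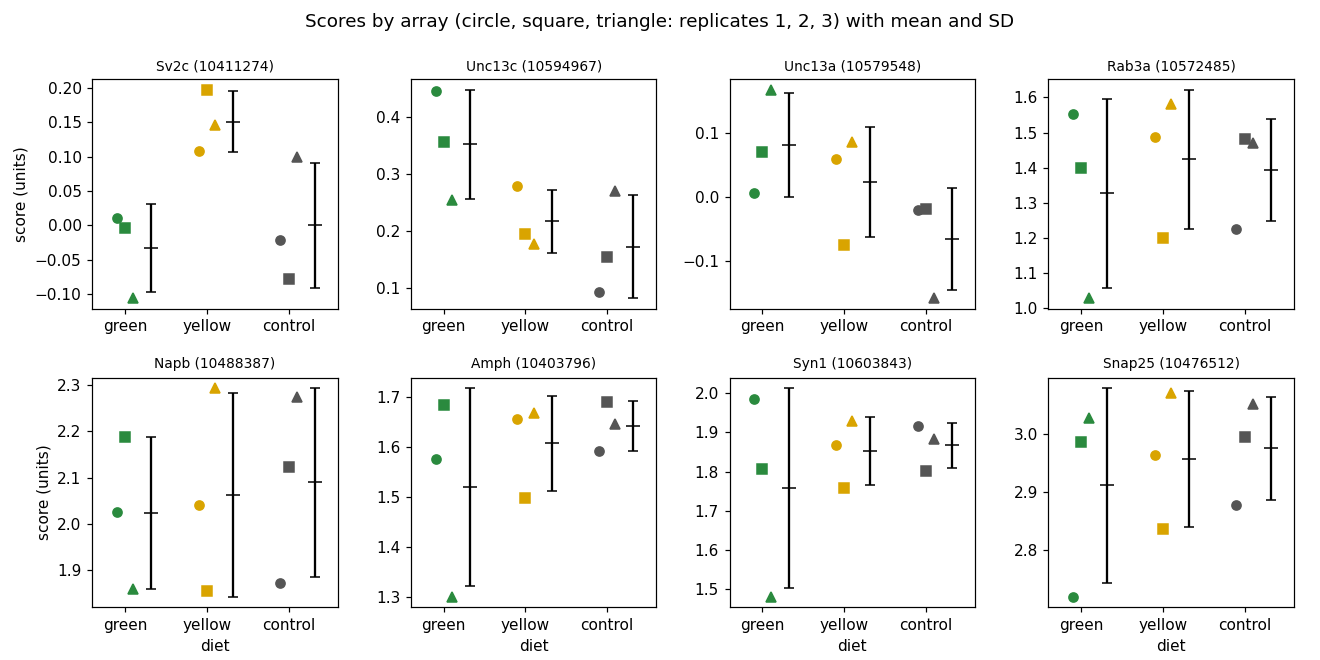
Score of each array (y axis, score units) by diet (x axis) for 8 probe sets: green, yellow and control arrays as coloured circles, squares and triangles for replicates 1, 2 and 3, with a bar at the mean ± SD of the 3 arrays. Sv2c shows yellow arrays above all green arrays, while in Rab3a, Amph and Syn1 green soybean replicate 3 lies below the other green arrays.

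Green soybean against control asks whether long feeding of the green extract goes with other hippocampal transcript levels. At an unadjusted limma p below 0.05 there were 3 of 51 members (5.88%), against 9.72% of all probe sets, and all 3 belonged to Munc13 genes. The mean was higher with green soybean in 31 of 51 (60.8%), against 65% of all probe sets. The median difference was 0.0125 units, against 0.0296 over all probe sets. Aligning array medians adds -0.0501 to this difference for every probe set alike, which left 11 of 51 members higher (21.6%, against 39.4% of all) and a median of -0.0376, against -0.0205 over all probe sets. Quantile normalization gave 25 of 51 (49.0%, against 50.8%). Counts of role groups under aligned medians, given below, carry that common shift. All 3 green arrays lay above all 3 control arrays in 2 members (3.92%; background 13.2%), and below in 0 (background 2.67%). Without green soybean replicate 3, 39 of 51 were higher (76.5%, against 70.5% of all) and the median difference was 0.0378, against 0.0371. By mean score, a rough guide since scores are not comparable between probe sets, 40 of 45 uncentred members lay above the median. On all arrays, the 10980 probe sets with the higher mean scores, fitted alone, had 549 with an unadjusted limma p below 0.05. Their median green minus control difference was 0.00848. Other shares of all probe sets were not split by score.

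Munc13 genes, the priming factors, supplied the 3 probe sets with the smallest p in this comparison, out of 10 probe sets of theirs among the 51. Unc13c encodes an isoform best known from the cerebellum. Its probe set 10594967 scored 0.446, 0.357 and 0.254 with green soybean, 0.279, 0.195 and 0.176 with yellow soybean and 0.0914, 0.154 and 0.270 in controls. Green replicate 3 lay just below the highest control array, so the groups overlapped, although the other 2 green arrays stood above every control array. The green minus control difference was 0.180 (SE 0.0654, 95% interval 0.0377 to 0.323, limma adjusted p = 0.462). Without green replicate 3 this difference was 0.230 (limma adjusted p = 0.570).

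A second Unc13c probe set, 10594969, scored 0.326, 0.220 and 0.433 with green soybean, 0.329, 0.220 and 0.282 with yellow soybean and 0.183, 0.216 and 0.152 in controls. The 3 green arrays and the 3 yellow arrays all exceeded the 3 control arrays here. Its difference was 0.142 for green minus control (limma adjusted p = 0.499) and was 0.0889 without green replicate 3 (adjusted p = 0.690). All 6 Unc13c probe sets had a higher mean with green soybean than in controls, by 0.00412 to 0.180, with 4 of 6 higher when array medians were aligned or after quantile normalization. The 6 probe sets are named for 1 gene and are not separate replicates. Their mean scores were low. Those of 10594948, 10594963 and 10594965 were 0.0981, -0.0352 and -0.00181, below the median of 0.176 over uncentred probe sets. Those of 10594967, 10594969 and 10594973 were 0.247, 0.262 and 0.293, above it. The left-out Unc13c probe set, 10594971, had no value on green replicate 1 and control replicate 1.

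Unc13a encodes the main Munc13 isoform of forebrain glutamatergic synapses. Its probe set 10579548, scored 0.00695, 0.0700 and 0.168 with green soybean, 0.0601, -0.0751 and 0.0861 with yellow soybean and -0.0205, -0.0188 and -0.158 in controls. Green arrays were all above the control arrays, by a mean of 0.147 (SE 0.0654, limma adjusted p = 0.501), and yellow arrays overlapped both. In the other 2 Unc13a probe sets the diets overlapped. Probe set 10579554 scored 1.29, 1.27 and 1.19 with green soybean, 1.26, 1.25 and 1.32 with yellow soybean and 1.26, 1.31 and 1.26 in controls. Probe set 10579550 scored 0.519, 0.386 and 0.362 with green soybean, 0.395, 0.484 and 0.534 with yellow soybean and 0.394, 0.447 and 0.468 in controls. Their green minus control differences were -0.0261 and -0.0141, so probe sets of the gene differed in sign. Probe set 10579548 had a low mean score of 0.0132, below the median of 0.176 over uncentred probe sets. The mean was 1.27 for 10579554 and 0.443 for 10579550. Unc13b, the third Munc13 gene, differed by 0.0126.

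The remaining priming and fusion regulators showed small differences. Stxbp5 encodes tomosyn, which occupies syntaxin and restrains SNARE assembly. It scored 1.31, 1.26 and 1.22 with green soybean, 1.35, 1.34 and 1.28 with yellow soybean and 1.39, 1.31 and 1.26 in controls, a green minus control difference of -0.0581 (SE 0.0533, limma adjusted p = 0.757) with overlapping arrays. Of the complexins, clamps and helpers of SNARE fusion, Cplx1 differed by -0.00487 and Cplx2 by 0.00309. This group of 13 probe sets had 9 higher and 4 lower for green soybean against control, and 0 passed. Its median difference was 0.0126, and 5 of 13 were higher with array medians aligned.

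Vesicle membrane and surface proteins were higher with green soybean in 6 of 10 and lower in 4, and 0 passed. Syngr1, a synaptogyrin, had the widest positive difference of this group. It scored 1.74, 1.60 and 1.58 with green soybean, 1.58, 1.37 and 1.68 with yellow soybean and 1.31, 1.53 and 1.62 in controls, which gave a green minus control difference of 0.156 (SE 0.0919, limma adjusted p = 0.612). Control replicate 1 was the lowest array, and control replicate 3 lay within the green range. Syngr1 also lies on 2 probe sets shared with other genes, which were not used.

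Syngr3, a synaptogyrin that binds the dopamine transporter, scored 1.21, 1.23 and 1.44 with green soybean, 1.14, 1.17 and 1.32 with yellow soybean and 1.15, 1.15 and 1.28 in controls. Its difference of 0.0999 (limma adjusted p = 0.685) came with green replicate 3 as the highest array, and was 0.0273 without it. Syn2, synapsin II, scored 1.93, 1.90 and 1.96 with green soybean, 1.76, 1.62 and 1.94 with yellow soybean and 1.72, 1.87 and 1.91 in controls, with green arrays close together and a difference of 0.0965 (adjusted p = 0.717 by limma). Synapsins tie vesicles into the reserve pool, and the differences of the 3 genes varied in sign. Syn1 scored 1.98, 1.81 and 1.48 with green soybean, 1.87, 1.76 and 1.93 with yellow soybean and 1.92, 1.80 and 1.88 in controls. Green replicate 3 was its lowest array and green replicate 1 its highest, so that the difference of -0.109 (SE 0.103, limma adjusted p = 0.764) became 0.0289 without green replicate 3. Syn3 differed by -0.0172.

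Synaptophysin, the abundant vesicle protein used as a marker of terminals, overlapped across the diets. Its gene Syp scored 1.95, 2.01 and 2.10 with green soybean, 2.03, 2.04 and 2.11 with yellow soybean and 2.08, 2.01 and 2.03 in controls, and green minus control was -0.0209 with a 95% interval of -0.141 to 0.0995. Sv2b, of the SV2 vesicle glycoproteins, gave 2.03, 2.20 and 2.01 with green soybean, 2.00, 1.82 and 2.40 with yellow soybean and 1.91, 2.09 and 2.15 in controls. Yellow replicate 3 was its highest and yellow replicate 2 its lowest array, and green minus control was 0.0269 (limma adjusted p = 0.959), with array medians aligned -0.0232. Sv2a, the binding site of the antiepileptic levetiracetam, differed by 0.0468, Sv2c by -0.0332 and Synpr, synaptoporin, by 0.00163. The group had 9 of 10 higher without green replicate 3, and 3 of 10 with array medians aligned.

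SNAREs and their recycling factors had 2 higher and 3 lower of 5 probe sets, and 0 passed, with 1 of 5 higher when array medians were aligned, 4 of 5 under array weights and 3 of 5 without green replicate 3. Snap25, a SNARE of the plasma membrane, gave 2.72, 2.99 and 3.03 with green soybean, 2.96, 2.84 and 3.07 with yellow soybean and 2.88, 3.00 and 3.05 in controls. Green replicate 1 was its lowest array. Green minus control was -0.0635 (SE 0.0869, limma adjusted p = 0.846), and 0.0325 without green replicate 1. Napb encodes beta-SNAP, an adaptor of the NSF ATPase, and its arrays ranged widely within each diet: 2.02, 2.19 and 1.86 with green soybean, 2.04, 1.85 and 2.29 with yellow soybean and 1.87, 2.12 and 2.27 in controls. Its difference was -0.0664, that of Nsf 0.0348, that of the syntaxin gene Stx1a -0.0159 and that of the vesicle SNARE gene Vamp1 0.0939.

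Synaptotagmins had 4 of 6 higher and 2 lower, and 0 passed, with 1 of 6 higher when array medians were aligned and 5 of 6 under array weights. Syt1, the calcium sensor of fast synchronous release, scored 2.41, 2.64 and 2.82 with green soybean, 2.65, 2.58 and 2.69 with yellow soybean and 2.61, 2.72 and 2.73 in controls. Green arrays held both its lowest and its highest score, and the difference of -0.0610 (limma adjusted p = 0.852) became 0.0437 without green replicate 1. Syt7, a slow high-affinity sensor, scored 1.29, 1.09 and 0.809 with green soybean, against 1.20, 1.13 and 1.03 in controls and differed by -0.0546. The others were Syt2 at 0.0711, Syt4 at 0.0401, Syt5 at 0.0399 and Syt11 at 0.00284, all green minus control differences.

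Active zone scaffolds had 3 higher and 3 lower of 6, and 0 passed, and all 6 were lower with array medians aligned. Rims2, a RIM that links vesicles to calcium channels, scored 0.871, 0.856 and 0.788 with green soybean, 0.971, 0.851 and 0.978 with yellow soybean and 0.929, 0.869 and 0.933 in controls. Control replicate 2 lay within the green range, and the difference was -0.0721 (SE 0.0539, limma adjusted p = 0.691). Pclo, the gene of Piccolo, scored 1.51, 1.64 and 1.81 with green soybean, 1.69, 1.45 and 1.61 with yellow soybean and 1.47, 1.63 and 1.73 in controls. Green minus control was 0.0440, and -0.0334 without green replicate 3. Bsn, the gene of Bassoon, had the widest spread among green arrays of any member: 1.09, 0.765 and 0.489 with green soybean, against 0.921, 0.826 and 0.701 in controls. Its difference was -0.0347, with 0.0441 for Rims1, 0.0445 for Rims3 and -0.0698 for Erc2, the ELKS-type scaffold.

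The Rab3 cycle, in which a small GTPase carries vesicles to the active zone, had 2 higher and 2 lower of 4, and 0 passed, with 1 of 4 higher under aligned array medians and 3 of 4 under array weights. Rab3a scored 1.55, 1.40 and 1.03 with green soybean, 1.49, 1.20 and 1.58 with yellow soybean and 1.23, 1.48 and 1.47 in controls. Green replicate 3 stood below every other array, and the difference of -0.0659 (SE 0.130, limma adjusted p = 0.898) was 0.0833 without it. Rab3b differed by 0.115, Rab3c by -0.0359 and Rph3a, the gene of the Rab3 effector rabphilin, by 0.00619.

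Vesicular glutamate transporters load vesicles with transmitter, Slc17a7 being the main form of cortex and hippocampus and Slc17a6 that of subcortical neurons. Slc17a6 scored 0.454, 0.425 and 0.804 with green soybean, 0.494, 0.536 and 0.423 with yellow soybean and 0.437, 0.520 and 0.645 in controls. Green replicate 3 was its highest array, so that the difference of 0.0271 became -0.0943 without it. Slc17a7 differed by 0.0408. Both probe sets were thus higher with green soybean, both were lower with array medians aligned, and 0 passed.

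Vesicle endocytosis genes had 1 higher and 2 lower of 3, and 0 passed, and all 3 were lower with array medians aligned. Amph, the gene of amphiphysin, scored 1.57, 1.68 and 1.30 with green soybean, 1.66, 1.50 and 1.67 with yellow soybean and 1.59, 1.69 and 1.65 in controls. Green replicate 3 again lay below all other arrays, and the difference of -0.123 (SE 0.0876, limma adjusted p = 0.676) was -0.0128 without it. Synj1, the gene of synaptojanin, which strips clathrin coats by lipid dephosphorylation, scored 1.58, 1.57 and 1.36 with green soybean, 1.51, 1.48 and 1.65 with yellow soybean and 1.49, 1.56 and 1.68 in controls. Its green minus control difference of -0.0754 (limma adjusted p = 0.781) was -0.00179 without green replicate 3. Dnm1, dynamin 1, scored 2.29, 2.19 and 2.15 with green soybean, 2.19, 2.01 and 2.26 with yellow soybean and 2.13, 2.22 and 2.21 in controls and differed by 0.0231 for green minus control. The last pair were Sncb, the gene of beta-synuclein, and Gap43, a growth cone protein. Sncb scored 1.57, 1.56 and 1.62 with green soybean, 1.59, 1.51 and 1.61 with yellow soybean and 1.62, 1.54 and 1.50 in controls. Green minus control was 0.0303 for Sncb and 0.0125 for Gap43.

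**Figure D2:**
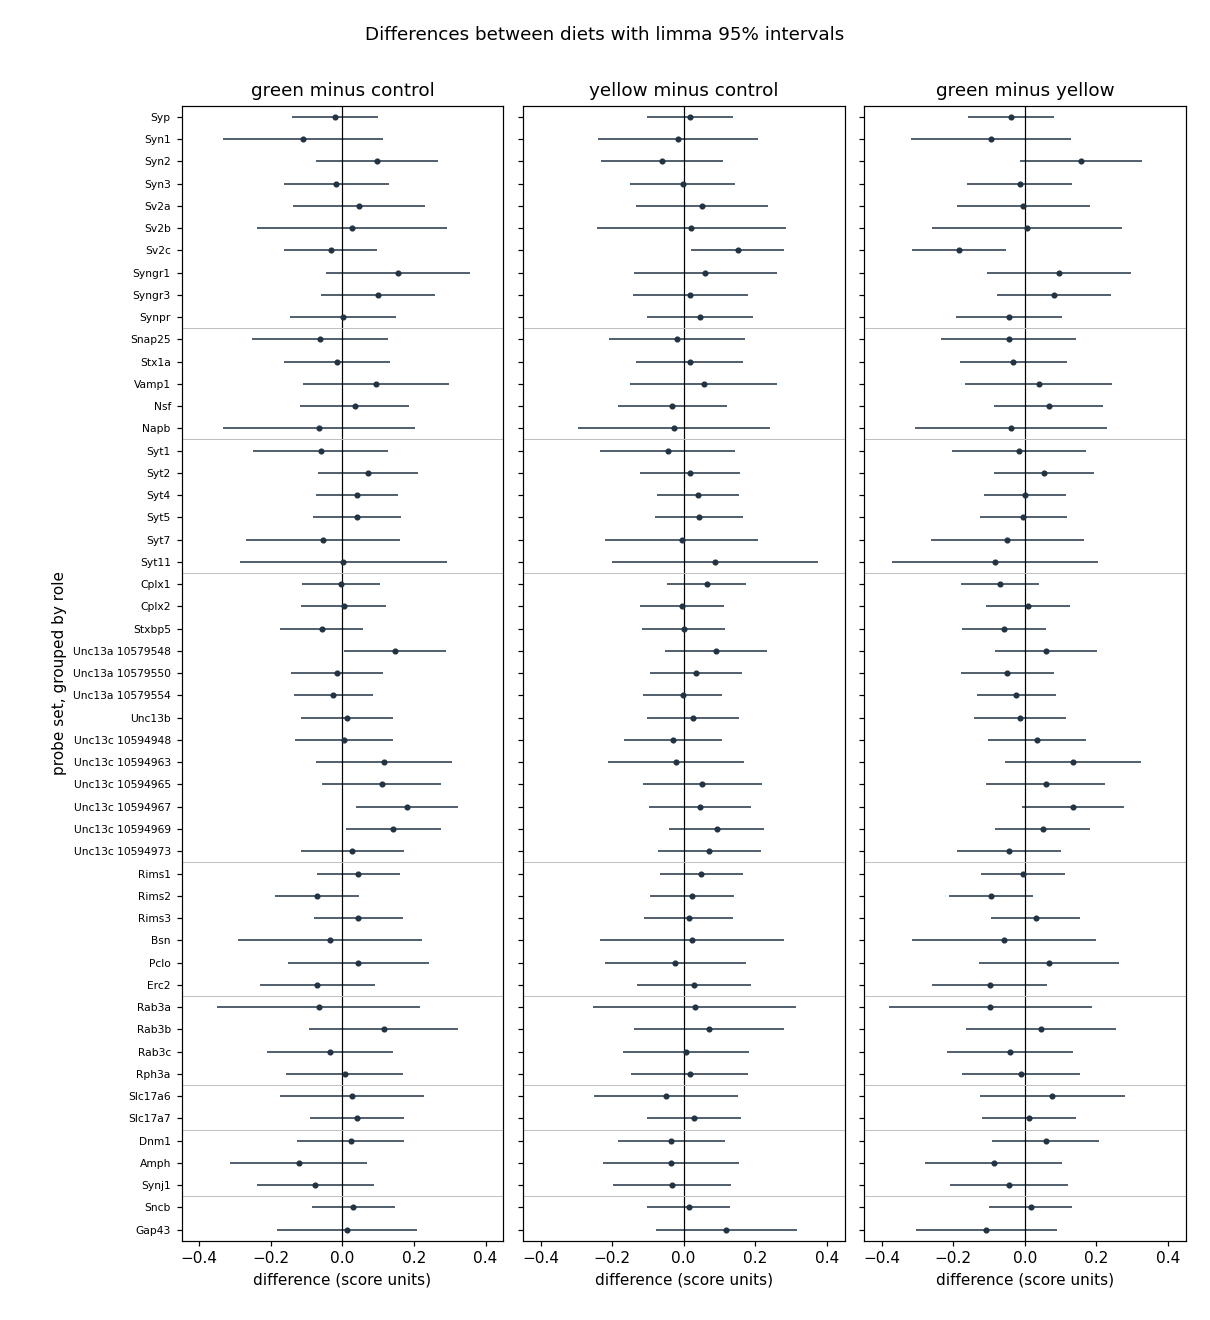
Difference between diet means with the limma 95% interval (x axis, score units) for each of the 51 probe sets (y axis, grouped by role), for green minus control, yellow minus control and green minus yellow. Intervals excluding 0 number 3, 1 and 1 in the 3 panels, and the Sv2c interval lies below 0 for green minus yellow.

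The yellow extract was compared with control in the same way, a comparison that shares its control arrays with the comparison above. The mean was higher with yellow soybean in 34 of 51 (66.7%), against 60.4% of all probe sets, and the count was 20 once array medians were aligned (39.2%, against 39.0%), while quantile normalization gave 29 (56.9%, against 49.5%). The median difference was 0.0186, against 0.0140 over all probe sets. At an unadjusted limma p below 0.05 there was 1 member (1.96%), Sv2c, against 3.04%. Among the 10980 probe sets with the higher mean scores, 166 were at that p, with a median difference of 0.0135. All yellow arrays lay above all control arrays in 2 members (3.92%), Sv2c and Unc13c 10594969 (background 6.65%), and below in 0 (background 2.65%). Without yellow replicate 3 the count of higher members was 25 (49.0%, against 57.0%) and the median difference -0.00266, and without yellow replicate 2 they were 42 (82.4%, against 61.3%) and 0.0452.

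Sv2c, the SV2 glycoprotein of basal ganglia and dopaminergic terminals, gave the leading value. It scored 0.0104, -0.00381 and -0.106 with green soybean, 0.109, 0.198 and 0.145 with yellow soybean and -0.0217, -0.0779 and 0.0996 in controls on a scale centred on the controls. The yellow arrays stood above the other 6 arrays, the nearest being control replicate 3. Yellow minus control was 0.151 (SE 0.0598, 95% interval 0.0203 to 0.281, limma adjusted p = 1.00), and 0.122 with array medians aligned. It ranged between 0.112 and 0.201 when each array was left out in turn. Gap43 scored 0.789, 0.878 and 0.770 with green soybean, 0.870, 0.775 and 1.11 with yellow soybean and 0.709, 0.723 and 0.968 in controls. Yellow replicate 3 was its highest array, and the difference of 0.120 (limma adjusted p = 1.00) was 0.0228 without it. Cplx1 scored 0.0128, 0.00911 and -0.0365 with green soybean, 0.0453, 0.0185 and 0.128 with yellow soybean and -0.0104, -0.0222 and 0.0326 in controls, a yellow minus control difference of 0.0640.

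Munc13 probe sets again stood among the higher ones, in values that use the same controls. Yellow minus control was 0.0931 for Unc13c 10594969 and 0.0895 for Unc13a 10579548, with a limma adjusted p of 1.00 for both. Of the 6 Unc13c probe sets 4 were higher and 2 lower, the lowest being 10594948 at -0.0296, with scores of 0.192, 0.132 and 0.00851 with green soybean, 0.0774, 0.152 and 0.00156 with yellow soybean and 0.0400, 0.137 and 0.143 in controls. Among the members lower with yellow soybean were Syn2 at -0.0597, Slc17a6 at -0.0499, Syt1 at -0.0445 and Dnm1 at -0.0349. All of these had a limma adjusted p of 1.00 and overlapping arrays. By role, the Rab3 cycle had 4 of 4 higher and active zone scaffolds 5 of 6, which became 2 of 4 and 1 of 6 with array medians aligned. Endocytosis genes had 3 of 3 lower, with differences of -0.0352 for Amph, -0.0349 for Dnm1 and -0.0322 for Synj1, and without yellow replicate 2 they had 2 of 3 higher, with a median of 0.0196. Priming regulators had 9 of 13 higher, and 0 of any group passed.

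Green against yellow soybean compares the extracts directly. The mean was higher with green soybean in 21 of 51 (41.2%), against 58% of all probe sets, and aligned array medians gave 17 (33.3%, against 46.6%) and quantile normalization 22 (43.1%, against 51.1%). The median difference was -0.0110, against 0.0147 over all probe sets. Without green replicate 3 those higher numbered 31 (60.8%, against 63.3%) with a median of 0.0184, and without yellow replicate 3 they numbered 29 (56.9%, against 59.2%) with 0.00884. At an unadjusted limma p below 0.05 there was 1 member (1.96%), Sv2c, against 7.1%. Among the 10980 probe sets with the higher mean scores, 330 were at that p, with a median difference of -0.00472. All green arrays lay above all yellow arrays in 0 members (background 7.63%), and below in 2 (3.92%), Sv2c and Cplx1 (background 2.92%).

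Sv2c averaged -0.0332 ± 0.0637 with green soybean and 0.151 ± 0.0446 with yellow soybean (SD, n = 3 each). The highest green array, replicate 1, stayed below the lowest yellow array, also replicate 1. Green minus yellow was -0.184 (SE 0.0598, 95% interval -0.314 to -0.0535, limma adjusted p = 0.634), with a range of -0.206 to -0.147 when each array was left out in turn. Array medians aligned gave -0.205 and quantile normalization -0.203. For any difference among diets, limma's F-test gave an unadjusted p below 0.05 for Sv2c and 1 Unc13c probe set, 2 of 51 (3.92%), against 7.06%. Among the 10980 probe sets with the higher mean scores, 323 had such a p.

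Cplx1 averaged -0.00487 ± 0.0275 with green soybean and 0.0640 ± 0.0572 with yellow soybean (SD, n = 3 each). Its green minus yellow difference of -0.0689 had a limma adjusted p of 0.793, and control arrays overlapped both diets. Rims2 was -0.0948, Erc2 -0.0986 and Gap43 -0.107, with adjusted p between 0.761 and 0.821 by limma. On the other side, Syn2 was 0.156 with a limma adjusted p of 0.724, yellow replicate 2 being its lowest array, and Unc13c 10594967 was 0.136 with 0.721. Syngr1 was 0.0951, Syngr3 0.0815 and Nsf 0.0672. Nsf, the ATPase that recycles SNAREs, scored 2.18, 2.36 and 2.41 with green soybean, 2.19, 2.19 and 2.36 with yellow soybean and 2.23, 2.30 and 2.32 in controls. By role, synaptotagmins had 1 of 6 higher and the Rab3 cycle 1 of 4, which became 3 of 6 and 3 of 4 without green replicate 3, and 5 of 6 and 3 of 4 under array weights. Endocytosis genes had 1 of 3 higher, and 3 of 3 under array weights.

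The SD of single arrays within a diet exceeded the SD of the 3 diet means for nearly every member. Means of 3 arrays vary less than single arrays even without a diet effect, so that order alone shows little. The median SD within a diet was 0.0928 units for members, against 0.0776 for all probe sets, while the median SD of the 3 diet means was 0.0336, against 0.0422. The SD of diet means exceeded the SD within diets in 3 of 51 members (5.88%), against 15.2% of all. Median limma F was 0.364 for members and 0.830 for all probe sets. It was 0.614 for the 10980 probe sets with the higher mean scores, fitted alone. The SDs were not split by score. The median member SD was 0.0962 among green arrays, 0.0865 among yellow arrays and 0.0675 among control arrays.

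**Figure D3:**
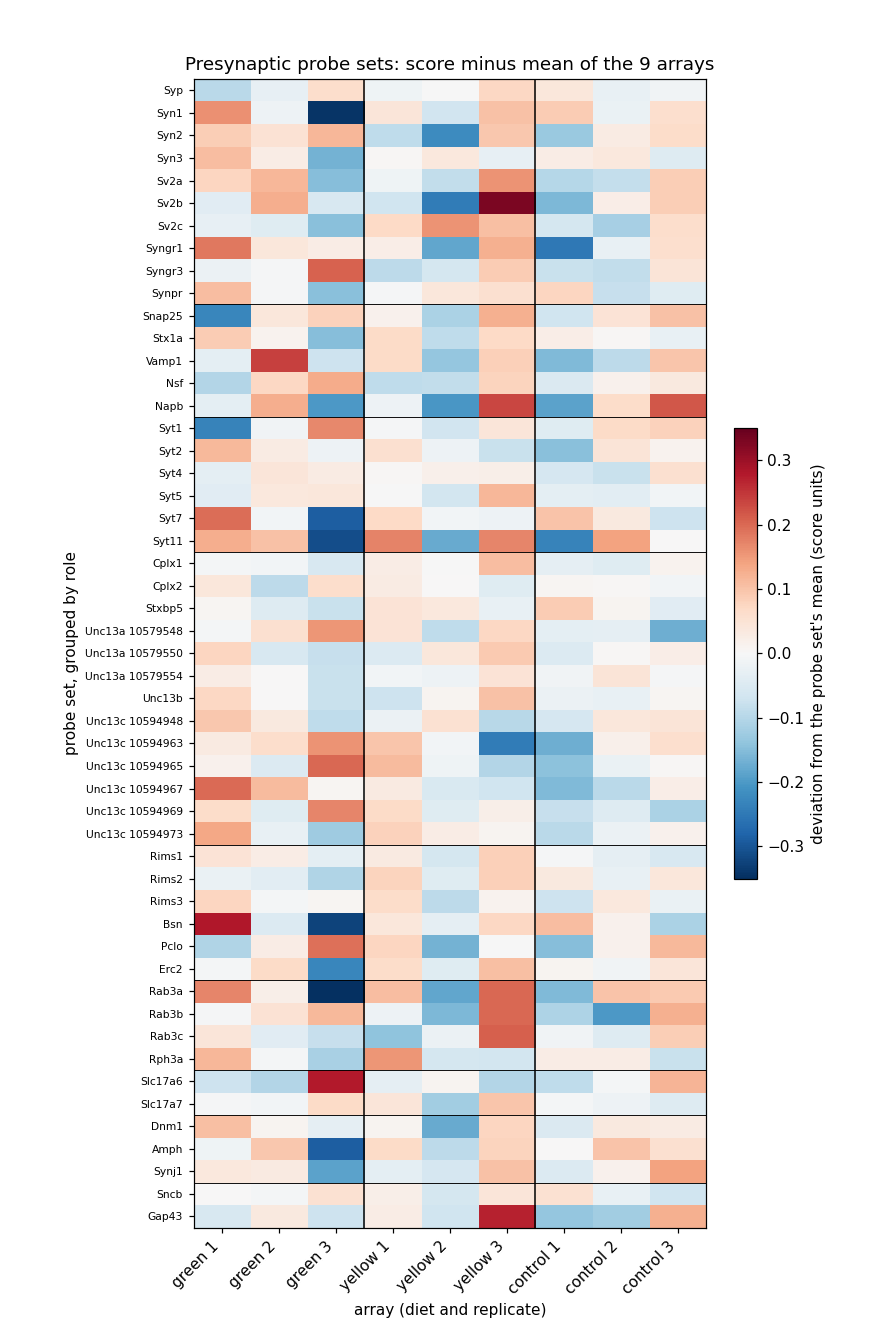
Deviation of each array (x axis, 3 arrays per diet) from the probe set's mean over the 9 arrays, in score units (colour), for the 51 probe sets (y axis, grouped by role). Green soybean replicate 3 is the lowest array for 21 probe sets, and yellow replicate 2 (median -0.0603) and yellow replicate 3 (median 0.0767) lie on opposite sides of the mean.

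That spread was shared by many members within an array. The median deviation of the 51 probe sets was 0.0310, 0.0133 and -0.0566 on the green arrays, 0.0262, -0.0603 and 0.0767 on the yellow arrays, and -0.0512, -0.00622 and 0.0282 on the control arrays. Markers of other cells moved on these arrays too, in both directions. On yellow replicates 2 and 3 the median deviation was -0.0751 and 0.141 for GABAergic interneuron markers and -0.0567 and 0.0672 for neocortex markers. It had the opposite signs for dentate granule cell markers (0.0982 and -0.0955), thalamus and habenula markers (0.0832 and -0.0634) and oligodendrocyte markers (0.0150 and -0.119). The part of these cells in the members' values was not tested. Each diet held arrays with presynaptic scores both above and below average. Green replicate 3 was the lowest array for 21 of 51 members (41.2%), against 23.4% of all probe sets, and the highest for 12 (23.5% against 24.7%). Yellow replicate 3 was the highest array for 18 members (35.3%), against 12.1% of all, and yellow replicate 2 the lowest for 9 (17.6% against 10.2%).

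**Figure D4:**
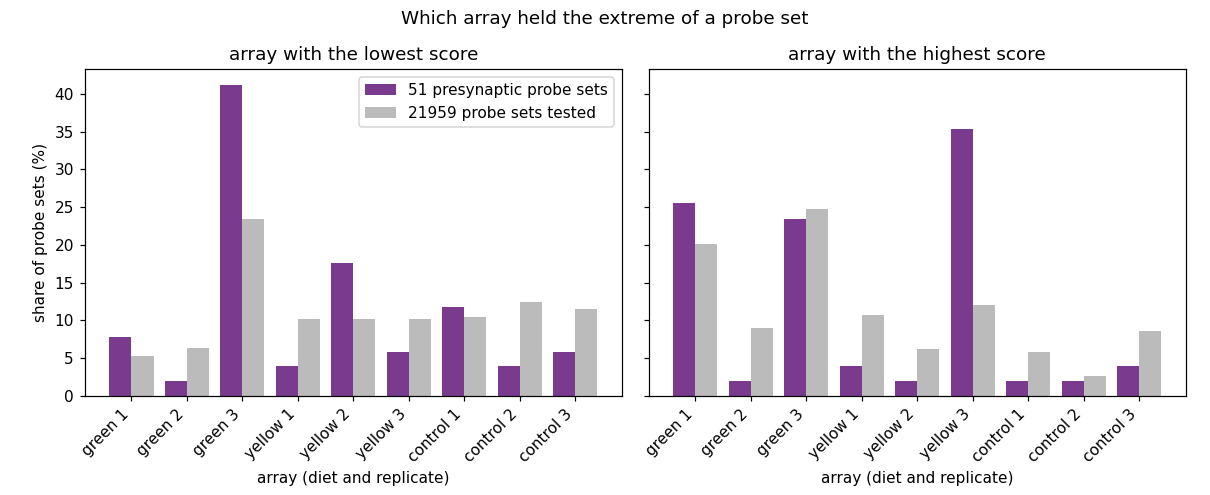
Share of probe sets (y axis, percent) for which each array (x axis) held the lowest score (left) or the highest score (right), for the 51 presynaptic probe sets and for all 21959 tested. Green soybean replicate 3 held the lowest score for 41.2% of presynaptic probe sets and yellow replicate 3 the highest for 35.3%.

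Green replicate 3 divided the members. It lay more than 0.1 units below both other green arrays in 17 of 51 (33.3% against 20.2% of all probe sets). These were Amph, Bsn, Erc2, Napb, Rab3a, Rph3a, Stx1a, Sv2a, Sv2c, Syn1, Syn3, Synj1, Synpr, Syt7, Syt11 and 2 Unc13c probe sets. Green replicate 3 lay more than 0.1 units above both in 6 (11.8% against 14.8%), namely Pclo, Slc17a6, Syngr3, Syt1 and 2 other Unc13c probe sets. On green replicate 3 the median deviation was -0.211 for oligodendrocyte markers, -0.120 for pyramidal cell markers, -0.105 for neuronal cell body and axon markers and -0.0528 for GABAergic interneuron markers, while it was 0.0582 for leptomeningeal markers, and 0.0109 over all probe sets. The share of that array's RNA makeup in these values was not tested.

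The authors' deposited table gives 1 p-value per probe set, with the test and comparison not given in the sources used here. The 6 centred members were those with a deposited p below 0.005, which makes 11.8% of members against 6.13% of all probe sets. In the authors' deposited table the p-value was 3.54e-06 for Erc2, 0.000132 for Rab3b, 0.000365 for Cplx1, 0.000990 for Slc17a7, 0.00200 for Sv2c and 0.00236 for Syt11. Among diet arrays these genes did not share a pattern. Rab3b scored 0.0579, 0.112 and 0.175 with green soybean, 0.0435, -0.0968 and 0.263 with yellow soybean and -0.0460, -0.140 and 0.186 in controls, with control replicate 3 above all green arrays. Syt11 scored 0.157, 0.134 and -0.282 with green soybean, 0.205, -0.145 and 0.202 with yellow soybean and -0.204, 0.172 and 0.0324 in controls, with arrays above and below 0 in every diet. Erc2 scored -0.0205, 0.0534 and -0.242 with green soybean, 0.0502, -0.0555 and 0.0915 with yellow soybean and -0.00484, -0.0250 and 0.0298 in controls, with green replicate 3 lowest. Slc17a7 scored 0.0189, 0.0137 and 0.0897 with green soybean, 0.0653, -0.0976 and 0.121 with yellow soybean and 0.0177, 0.00530 and -0.0230 in controls, with yellow replicate 2 lowest and yellow replicate 3 highest. Only Sv2c and Cplx1 of these 6 had a pair of diets that did not overlap.

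Other genes of the release pathway gave the wider setting, from a list of 101 genes chosen by function, of which 95 were measured on 101 probe sets. By limma, 0 passed in any comparison. With green soybean against control 49 were higher (48.5%, against 65% of all probe sets) and 52 lower, with a median difference of -0.00453, and 5 had an unadjusted p below 0.05 (4.95%, against 9.72%). Yellow soybean against control gave 60 higher (59.4%, against 60.4%) and 41 lower, with 1 at that p (0.990%, against 3.04%). Green against yellow soybean gave 45 higher (44.6%, against 58%) and 56 lower, with 2 at that p (1.98%, against 7.1%). The split moved with the scaling, to 29 higher for green soybean against control, 31 for yellow soybean against control and 28 for green against yellow soybean with array medians aligned. Without green replicate 3, 61 were higher for green soybean against control and 60 for green against yellow soybean. Slc18a2, the vesicular monoamine transporter, led the comparisons with control. It scored -0.257, -0.278 and -0.144 with green soybean, -0.258, -0.298 and -0.198 with yellow soybean and -0.447, -0.377 and -0.470 in controls, so that both extracts lay above the shared controls, by 0.205 for green soybean and 0.180 for yellow soybean (limma adjusted p = 0.431 and 1.00). All these scores were low, below the median of 0.176 over uncentred probe sets. All green arrays lay above all control arrays in 11 of the 101 probe sets (background 13.2%). All yellow arrays did so in 3 (background 6.65%). Unc13d, the Munc13 relative of immune granule release, differed by 0.175 between green soybean and control (limma adjusted p = 0.471). Cadps, a priming factor of dense-core vesicles, differed by -0.173, and Atp6v0a1, a subunit of the proton pump that fills vesicles, by -0.143 (limma adjusted p = 0.543 for both). These scores were centred on the controls, and green replicate 3 was the most extreme green array of each gene. The green arrays scored 0.0981, 0.139 and 0.289 for Unc13d, -0.0352, -0.0707 and -0.413 for Cadps and -0.0528, -0.0540 and -0.321 for Atp6v0a1. Between the extracts, Syt6 differed by 0.181 and Cacnb4, a calcium channel subunit, by 0.150, green minus yellow, with adjusted p of 0.634 and 0.682 by limma. Sh3gl3 at -0.103 and Ppfia2 at -0.117 were the leading lower ones, and green replicate 3 was the lowest array of both. For yellow soybean against control, Erc1 differed by 0.138, Cacnb2 by -0.118 and Napg by -0.0688.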

How the data were processed

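Hippocampal RNA on a 1-colour Affymetrix array was deposited as 1 score per probe set and array, which per the labels came from the SuperNORM data service. Labelling used biotinylated cRNA of RNeasy total RNA, per the labels' protocols. The deposited table of p-values gives 1 p-value per probe set by the authors, with the test not given in the sources used here. Gene names follow the platform annotation. An exact 0 was read as no value. Of 34760 probe sets, 6573 control-type ones and 6228 with an exact 0 were left out. Value columns whose names match no label, 18 in all, were not used.

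The package limma 3.58.1 (R 4.3.3) was fitted with lmFit and eBayes, in 1 model over 9 arrays, two-sided, with Benjamini-Hochberg adjustment over 21959 probe sets and calls below 0.05. The procedure was tested on simulated data. Precision is limited by 3 arrays per diet. Groups follow the sample labels. Alternatives changed the normalization, the filter, the spread model, the arrays in the fit, the replicate block and each array in turn. Values on every array are given for the 5 members per direction and comparison with the smallest p, the member of each role group with the highest mean score, and the other Unc13a probe sets, with the remaining Unc13c ones given by their range, and a few further members were named after their values were seen. Of the other pathway genes, the 2 per direction and comparison with the smallest p are named. The members and lists were chosen with earlier results of these data known.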

Additional observations from a re-analysis of the deposited data

How the results depend on the processing

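Under all 18 alternatives and in every comparison, 0 presynaptic probe sets were called by limma, the smallest adjusted p being 0.303 for Unc13c 10594967 in green soybean against control with array weights, which gave green soybean replicate 3 a weight of 0.304. The median difference over the 51 probe sets ranged, with single arrays left out, between -0.00328 and 0.0378 for green soybean against control, -0.00266 and 0.0452 for yellow soybean against control, and -0.0445 and 0.0184 for green against yellow soybean. Aligning array medians gave -0.0376, -0.0103 and -0.0322, and quantile normalization -0.000509, 0.00625 and -0.00855, in the same order. With the replicate number as a block, 0 members were called. Each diet held 1 array of each replicate number, so this block cannot move a difference. The medians of 0.0125, 0.0186 and -0.0110 were therefore the same by construction. Same-numbered arrays of different diets correlated between -0.0877 and 0.164 in their deviations, and differently numbered ones between -0.167 and 0.193. The labels do not say whether the numbers pair the samples, and so few correlations cannot decide it. Across all probe sets, 1 was called for green soybean against control with array weights, and without green soybean replicate 3 there was 1 in that comparison, 1 for green against yellow soybean and 1 for any diet, none of them a member.

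Some differences of named members changed sign. Aligning array medians adds the same -0.0501 to every green minus control difference, which by construction turned the smaller positive ones. For the other sign changes the cause was not tested. For green soybean against control, aligning array medians gave -0.0270 for Dnm1, -0.00608 for Pclo, -0.0230 for Slc17a6, -0.0198 for Sncb and -0.0232 for Sv2b, and array weights gave 0.00453 for Rab3a and -0.0483 for Slc17a6. With single arrays left out, the range for green soybean against control was -0.0155 to 0.0528 for Dnm1, -0.0334 to 0.115 for Pclo, -0.178 to 0.0833 for Rab3a, -0.0943 to 0.0951 for Slc17a6, -0.122 to 0.0325 for Snap25, -0.0434 to 0.0777 for Sv2b, -0.223 to 0.0289 for Syn1 and -0.159 to 0.0437 for Syt1. For yellow soybean against control it was -0.0880 to 0.0378 for Dnm1, -0.0985 to 0.00556 for Slc17a6, -0.143 to 0.0149 for Syn2 and -0.0672 to 0.00817 for Unc13c 10594948. With 3 arrays per diet, the standard error of a member's difference ran between 0.0501 and 0.132.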
